A study of Homo sapiens with 2 samples.

Results

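Transcripts of 36 haematopoietic cytokine receptor chains were compared between K562 and MOLT4, a pair of established human leukaemia lines. K562 derives from chronic myeloid leukaemia, carries the BCR-ABL1 fusion kinase and is labelled erythrocyte. MOLT4 derives from T cell acute lymphoblastic leukaemia and is labelled T lymphoblast. The genes were chosen by name, with earlier results of these data known, and all 36 were found among the 60586 rows of the deposited table. IL9R has a row on X and a row on Y, so they fill 37 rows. Both lines were untreated and shared their culture conditions: DMEM with 10% FBS and 1% antibiotics (penicillin and streptomycin), kept at 37 °C under 5% CO2. RNA came from 1 flask and was measured by RNA sequencing. The design text states 3 biological replicates, but the table holds 1 value per gene and line, in FPKM, a read-fragment count divided by transcript length and by the library's mapped fragments. The sources used here do not say whether these values combine replicates, and with no replicate spread to show, every test quoted is the authors' own. If they rest on 1 library per line, that test compares those libraries and not the lines.

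Most of these chains belong to receptors that have no enzyme of their own. Ligand binding brings chains together, the Janus kinases (JAK) bound to their tails become active, and STAT factors are phosphorylated and enter the nucleus. Many receptors pair a private chain, which recognises a ligand, with a chain shared by a family: the common gamma chain IL2RG serves IL-2, IL-4, IL-7, IL-9, IL-15 and IL-21, CSF2RB serves IL-3, IL-5 and GM-CSF, and IL6ST (gp130) serves the IL-6 family. The erythropoietin, growth hormone, prolactin and G-CSF receptors are homodimers. Chains of the IL-1, IL-17, IL-18 and TGF-beta receptors, which signal through other adaptors or through SMAD factors, were also on the list.

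The lines differed in which shared and private chains they carried. K562 had the higher levels of TGFBR1, LEPR, IL6ST, IL10RA, EPOR and IL18R1. MOLT4 had the higher levels of IL2RG, TGFBR2, IL12RB1, IL11RA and IL7R. A gene was called where the q-value of Cuffdiff in the authors' deposited table was at most 0.05. Of the 30 chains with a test, 18 were called, 12 higher in K562 cells and 6 higher in MOLT4 cells. That is 60.0% of the chains tested, against 42.2% of all 18870 genes tested. By direction it is 40.0% against 23.4% for genes higher in K562 cells, and 20.0% against 18.8% for genes higher in MOLT4 cells, which is near the background. The median of log2((K562 + 1)/(MOLT4 + 1)) was 0.73 over the 30 chains and 0.06 over all genes tested. For the chains it was 0.30 with the untested members included and 0.21 with a pseudocount of 5 FPKM. A gene can have a test because it is high in a single line, so these shares describe the tested chains and not the whole list. In bulk RNA, fewer expressing cells and less RNA per cell cannot be told apart.

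The other 6 chains had no test and stood at or below 0.193 FPKM in both lines. IL2RA, the alpha chain of the high-affinity IL-2 receptor, and IL9R, the IL-9 receptor, were listed at 0 in K562 cells and in MOLT4 cells. IL5RA, IL6R, GHR and PRLR were at 0.193, 0.157, 0.0406 and 0.0155 FPKM in K562 cells, and all of them were listed at 0 in MOLT4 cells. The 45 genes that the table gives on X and again on Y, IL9R among them, reached at most 0.00216 FPKM in either line, so the 0 of IL9R may not be a measured level.

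**Figure D1:**
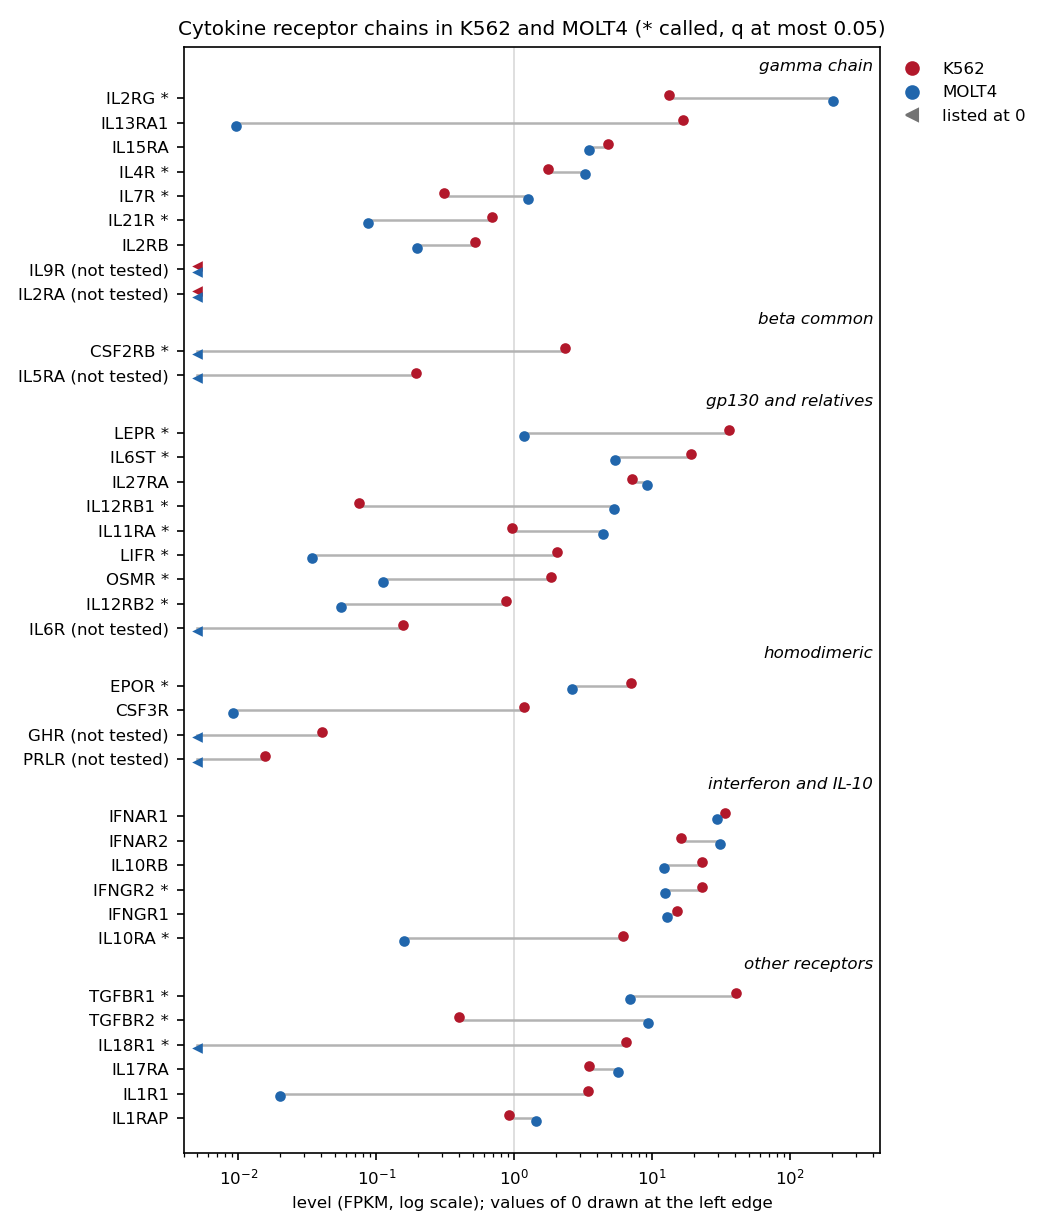
Level of each receptor chain in K562 (red, upper point) and MOLT4 (blue, lower point) in FPKM on a log scale, grouped by chain family, 1 value per line and no error bars. The chains for type I interferons and interferon gamma lie at 12.3 FPKM or more in both lines, whereas IL2RG in MOLT4 cells stands far to the right at 204 FPKM.

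Levels ran over a wide range within each line. At least 1 FPKM was reached by 22 chains in K562 cells and 19 in MOLT4 cells. Both lines reached it for 14 chains, K562 alone for 8 and MOLT4 alone for 5, and 9 were below it in both. TGFBR1 was the highest in K562 cells at 40.7 FPKM, followed by LEPR at 36.0 FPKM and IFNAR1 at 33.7 FPKM. In MOLT4 the order began with IL2RG at 204 FPKM, IFNAR2 at 30.7 FPKM and IFNAR1 at 29.4 FPKM. With 1 value per line, neighbours in these orders cannot be ranked beyond error. IL2RG made up 4.57% of the summed FPKM of the list in K562 cells and 56.4% in MOLT4 cells. The sums were 289.5 FPKM in K562 cells and 361 FPKM in MOLT4 cells with IL2RG. Without it they were 276 FPKM in K562 cells and 157 FPKM in MOLT4 cells.

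Lineage markers followed the labels. Of 7 erythroid markers, 5 were called higher in K562 cells and none in MOLT4 cells, and their summed level was 1014 FPKM in K562 cells and 130.2 FPKM in MOLT4 cells, nearly all of the MOLT4 sum being TFRC. Of 7 T lymphoblast markers, none was called higher in K562 cells and 6 were called higher in MOLT4 cells. Their sums were 35.2 FPKM in K562 cells and 2221 FPKM in MOLT4 cells, most of the K562 sum being CD3D at 29.7 FPKM. Of 7 markers of B, myeloid and natural killer cells, LYZ alone was called, at 105 FPKM in K562 cells and 0.0623 FPKM in MOLT4 cells, while MPO, MS4A1 and CD14 were at or below 0.126 FPKM in both. The depth of the libraries is unknown, so the precision of low values cannot be given. Across 10960 tested genes that reached 1 FPKM in K562 cells and in MOLT4 cells, the median log2 ratio of K562 to MOLT4 was 0.03.

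Start regions of called chains are shown for the members whose RefSeq entry gives a single start and whose window holds a match to a GATA or an ETS motif. GATA factors and ETS factors are both blood cell regulators, and GATA1 was at 151 FPKM in K562 cells and listed at 0 in MOLT4 cells. Levels of the other GATA factors and of the ETS factors are not given here. The level of GATA1 alone therefore does not say whether a line lacks a factor for these motifs, and binding was not tested. The window is the 250 bases before the start, 5′ to 3′, from RefSeq on GRCh38.p14, and capitals mark the matches.
EPOR (chr19:11384315-11384564, minus strand): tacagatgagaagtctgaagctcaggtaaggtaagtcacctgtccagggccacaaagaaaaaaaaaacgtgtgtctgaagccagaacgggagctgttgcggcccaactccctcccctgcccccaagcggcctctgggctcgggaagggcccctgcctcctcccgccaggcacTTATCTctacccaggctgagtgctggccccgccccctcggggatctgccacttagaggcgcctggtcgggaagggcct
IL10RA (chr11:117989695-117989944, plus strand): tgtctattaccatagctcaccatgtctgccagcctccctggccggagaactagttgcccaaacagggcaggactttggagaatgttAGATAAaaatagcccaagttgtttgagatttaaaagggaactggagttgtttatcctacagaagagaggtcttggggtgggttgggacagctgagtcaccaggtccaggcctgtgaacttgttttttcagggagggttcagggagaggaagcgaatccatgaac
IL6ST (chr5:55994964-55995213, minus strand): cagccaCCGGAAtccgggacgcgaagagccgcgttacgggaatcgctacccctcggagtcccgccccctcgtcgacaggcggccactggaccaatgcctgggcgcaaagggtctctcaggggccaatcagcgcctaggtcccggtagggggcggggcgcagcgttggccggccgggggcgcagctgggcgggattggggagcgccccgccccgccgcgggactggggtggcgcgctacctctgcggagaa
IFNGR2 (chr21:33403163-33403412, plus strand): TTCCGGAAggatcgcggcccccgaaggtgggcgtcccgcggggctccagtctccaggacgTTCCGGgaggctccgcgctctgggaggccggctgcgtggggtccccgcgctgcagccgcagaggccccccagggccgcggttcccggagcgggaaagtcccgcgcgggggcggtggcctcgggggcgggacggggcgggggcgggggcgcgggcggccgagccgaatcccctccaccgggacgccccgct
IL2RG (chrX:71111578-71111827, minus strand): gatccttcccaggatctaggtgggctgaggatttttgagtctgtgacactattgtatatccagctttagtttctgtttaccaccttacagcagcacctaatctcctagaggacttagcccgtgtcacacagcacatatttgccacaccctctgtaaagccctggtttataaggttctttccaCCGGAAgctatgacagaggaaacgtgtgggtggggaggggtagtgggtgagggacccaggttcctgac
IL7R (chr5:35856641-35856890, plus strand): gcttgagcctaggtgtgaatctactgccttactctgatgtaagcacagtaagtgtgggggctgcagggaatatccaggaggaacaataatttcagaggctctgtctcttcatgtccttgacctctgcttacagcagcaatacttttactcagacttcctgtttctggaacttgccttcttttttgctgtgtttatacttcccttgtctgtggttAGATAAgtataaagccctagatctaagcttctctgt
The GATA motif searched was GATA with A or T before it and A or G after it, and the ETS motif was CCGGAA, each on both strands, with overlapping matches counted separately. EPOR, IL10RA, IL6ST and IFNGR2 were called higher in K562 cells, and IL2RG and IL7R higher in MOLT4 cells. The GATA match of EPOR begins 78 bases before the start and that of IL10RA 164 bases before it. IL7R, which was lower in K562 cells, also holds a GATA match, 36 bases before the start. The ETS match of IL2RG begins 68 bases before the start. Matches of either motif thus lay before RefSeq starts of chains higher in either line. In GENCODE release 29, the windows of IL10RA, IL7R, IL2RG and IFNGR2 lie wholly inside the annotated gene. The gene of IL10RA begins at 117986348 and that of IL7R at 35852695, both ahead of the window. Which start the lines use was not tested. Of the 10 called chains with a single listed start, 3 held a GATA match, 3 an ETS match and 4 neither.

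RefSeq entries were present for 32 of the 36 chains, with 63 windows in all. A GATA match was in 30.2% of these windows, against 22.3% of the 35116 windows of all genes. An ETS match was in 11.1% of the windows of the chains and 14.5% of all windows. The STAT motif TTCNNNGAA was in 7.94% of the windows of the chains and 6.57% of all windows, and the RUNX motif TGTGGT was in 11.1% of the windows of the chains and 11.0% of all windows. The same IL9R window, which holds a GATA match and a RUNX match, is listed on X and on Y, and both copies are counted in the window shares. Windows of a gene with several starts can also overlap. Genes with at least 1 match were therefore counted too, over 32 chains and 27305 genes in all. The shares were 37.5% of the chains and 26.2% of all genes for the GATA motif, 18.8% and 17.2% for the ETS motif, 12.5% and 8.09% for the STAT motif, and 18.8% and 13.2% for the RUNX motif. For the ETS motif the direction thus differs between windows and genes. The 32 chains had 63 windows and the 27305 genes had 35116, so the chains had more windows per gene. More windows raise the share of genes with at least 1 match, so the gene shares favour the chains by construction. A match describes letters in the sequence and not binding.

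Among the gamma chain receptors, the shared chain itself had the largest ratio of those called. IL2RG (ENSG00000147168.12, chromosome X, 71107404 to 71112108, GENCODE release 29 on GRCh38) was measured at 13.2 FPKM in K562 cells and 204 FPKM in MOLT4 cells. It was thus 15.4-fold higher in MOLT4 cells and was called (q = 0.000203, Cuffdiff, the authors' deposited table). IL7R, which pairs with IL2RG to bind the lymphoid growth factor IL-7, was at 0.308 FPKM in K562 cells and 1.26 FPKM in MOLT4 cells. That 4.09-fold difference was called, although the level in MOLT4 cells was low. IL4R, the IL-4 binding chain, was at 1.74 FPKM in K562 cells and 3.22 FPKM in MOLT4 cells and was called (q = 0.0256, Cuffdiff, the authors' deposited table).

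The remaining gamma chain partners were low or went the other way. IL21R, the IL-21 binding chain, was at 0.693 FPKM in K562 cells and 0.0876 FPKM in MOLT4 cells and was called higher in K562 cells. IL2RB, the signalling partner of IL2RG for IL-2 and IL-15, was at 0.516 FPKM in K562 cells and 0.197 FPKM in MOLT4 cells and was not called (q = 0.113, Cuffdiff, the authors' deposited table). IL15RA, which presents IL-15, was at 4.77 FPKM in K562 cells and 3.47 FPKM in MOLT4 cells and was not called. High IL2RG in MOLT4 cells therefore stood beside private chains that reached at most 3.47 FPKM.

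IL13RA1 replaces IL2RG as the partner of IL4R in the type II receptor, which binds IL-4 and IL-13. It was at 16.8 FPKM in K562 cells and 0.00964 FPKM in MOLT4 cells. The ratio was 1740.2, yet the gene was not called (q = 0.157, Cuffdiff, the authors' deposited table). Of the partners of IL4R, IL13RA1 stood at 16.8 FPKM and IL2RG at 13.2 FPKM in K562 cells, whereas in MOLT4 cells they stood far apart, at 0.00964 and 204 FPKM.

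CSF2RB, the beta common chain, was at 2.34 FPKM in K562 cells and listed at 0 in MOLT4 cells, and it was called higher in K562 cells (q = 0.000203, Cuffdiff, the authors' deposited table). Its partner IL5RA, the IL-5 binding chain, was at 0.193 FPKM in K562 cells and listed at 0 in MOLT4 cells, without a test. The alpha chains for GM-CSF and IL-3, CSF2RA and IL3RA, belong to the same set of genes given on X and Y and stood at 0 in both lines.

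Of 8 tested chains of the gp130 family and its relatives, 5 were called higher in K562 cells and 2 in MOLT4 cells, where 23.4% and 18.8% of all genes tested were called. IL6ST, the shared signal transducer (ENSG00000134352.20, chromosome 5, 55935095 to 55994993), was at 19.2 FPKM in K562 cells and 5.37 FPKM in MOLT4 cells, a ratio of 3.57. LEPR, the leptin receptor, was at 36.0 FPKM in K562 cells and 1.17 FPKM in MOLT4 cells, a ratio of 30.7. Both were called at the smallest q in the authors' deposited table of Cuffdiff results (0.000203).

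The private chains that pair with IL6ST split between the lines. LIFR, the receptor for leukaemia inhibitory factor, was at 2.04 FPKM in K562 cells and 0.0340 FPKM in MOLT4 cells. OSMR, the oncostatin M chain, was at 1.83 FPKM in K562 cells and 0.111 FPKM in MOLT4 cells, and both were called higher in K562 cells. IL11RA, the IL-11 binding chain, was at 0.960 FPKM in K562 cells and 4.42 FPKM in MOLT4 cells and was called higher in MOLT4 cells (q = 0.00264, Cuffdiff, the authors' deposited table). IL27RA, the IL-27 chain, was present in both lines, at 7.12 FPKM in K562 cells and 9.15 FPKM in MOLT4 cells, and was not called (q = 0.179, Cuffdiff, the authors' deposited table).

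The IL-12 receptor chains were found in opposite lines. IL12RB1, which binds the subunit that IL-12 and IL-23 share, was at 0.0752 FPKM in K562 cells and 5.23 FPKM in MOLT4 cells, 69.6-fold higher in MOLT4 cells. IL12RB2, its signalling partner for IL-12, was at 0.877 FPKM in K562 cells and 0.0556 FPKM in MOLT4 cells, 15.8-fold higher in K562 cells. Both were called (q = 0.000391 and 0.00249, Cuffdiff, the authors' deposited table). IL23R, the partner of IL12RB1 for IL-23, was at 25.2 FPKM in K562 cells and listed at 0 in MOLT4 cells. In each line, at least 1 chain of the IL-12 receptor and of the IL-23 receptor stayed below 1 FPKM.

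**Figure D2:**
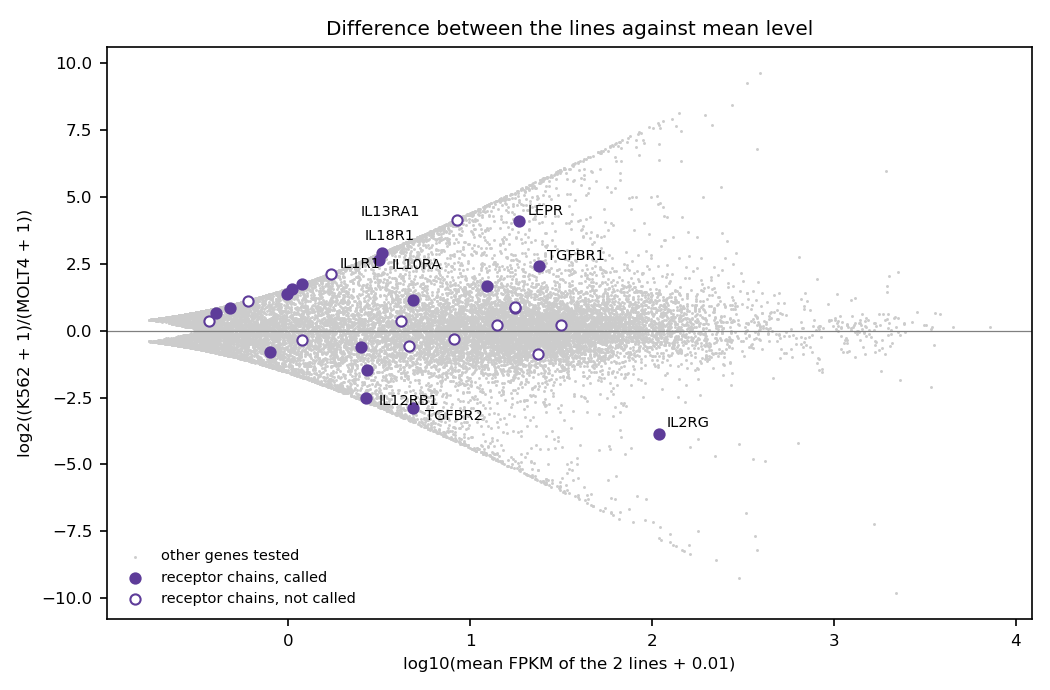
Difference between the lines, log2((K562 + 1)/(MOLT4 + 1)), against the log10 mean level, with grey points for all genes tested and purple points for the 30 tested receptor chains (filled where called, open where not). IL2RG is the lowest purple point and IL13RA1, which was not called, and LEPR are the highest.

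Among the homodimeric receptors, EPOR was the only one at 1 FPKM or more in both lines. EPOR, the erythropoietin receptor of red cell precursors (ENSG00000187266.14, chromosome 19, 11377205 to 11384342), was at 7.05 FPKM in K562 cells and 2.61 FPKM in MOLT4 cells. The ratio of 2.71 was called (q = 0.000203, Cuffdiff, the authors' deposited table). CSF3R, the G-CSF receptor of neutrophils, was at 1.17 FPKM in K562 cells and 0.00907 FPKM in MOLT4 cells and was not called (q = 0.321, Cuffdiff, the authors' deposited table). The growth hormone and prolactin receptor genes, GHR and PRLR, stayed below 0.1 FPKM in both.

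The chains of the type I interferon and interferon gamma receptors were well above 1 FPKM in each line. IFNAR1, a chain of the type I interferon receptor, was at 33.7 FPKM in K562 cells and 29.4 FPKM in MOLT4 cells. IFNGR1, the ligand-binding chain for interferon gamma, was at 15.1 FPKM in K562 cells and 12.9 FPKM in MOLT4 cells. Neither was called (q = 0.495 and 0.383, Cuffdiff, the authors' deposited table). IFNGR2, the second interferon gamma chain, was at 22.9 FPKM in K562 cells and 12.3 FPKM in MOLT4 cells, and its 1.85-fold difference was called just under the threshold (q = 0.0465, Cuffdiff, the authors' deposited table). IFNAR2, the other type I chain, was at 16.2 FPKM in K562 cells and 30.7 FPKM in MOLT4 cells and was just over it (q = 0.0590, Cuffdiff, the authors' deposited table).

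The IL-10 receptor shares this family. IL10RA, its ligand-binding chain (ENSG00000110324.10, chromosome 11, 117986348 to 118003037), had levels of 6.13 FPKM in K562 cells and 0.159 FPKM in MOLT4 cells, a ratio of 38.6 that was called. IL10RB, which also serves other class II receptors, was at 23.0 FPKM in K562 cells and 12.1 FPKM in MOLT4 cells and was not called (q = 0.0583, Cuffdiff, the authors' deposited table). Of the interferon and IL-10 chains, 2 of 6 were called higher in K562 cells and none in MOLT4 cells, against 23.4% and 18.8% of all genes tested, so the first share is near the background.

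The TGF-beta receptor chains went in opposite directions. TGFBR1, the type I kinase chain (ENSG00000106799.13, chromosome 9, 99104038 to 99154192), was at 40.7 FPKM in K562 cells and 6.88 FPKM in MOLT4 cells, a ratio of 5.91. TGFBR2, the type II chain that binds ligand and phosphorylates TGFBR1 (ENSG00000163513.18, chromosome 3, 30606502 to 30694142), had levels of 0.400 FPKM in K562 cells and 9.26 FPKM in MOLT4 cells, 23.1-fold higher in MOLT4 cells. Both were called (q = 0.000203, Cuffdiff, the authors' deposited table). The chains stood close to each other in MOLT4 cells, whereas in K562 cells TGFBR2 lay far below TGFBR1.

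The IL-1, IL-18 and IL-17 receptor chains were mixed. IL18R1, the IL-18 binding chain, was at 6.49 FPKM in K562 cells and listed at 0 in MOLT4 cells, and was called higher in K562 cells (q = 0.000203, Cuffdiff, the authors' deposited table). IL1R1, the IL-1 receptor, was at 3.40 FPKM in K562 cells and 0.0201 FPKM in MOLT4 cells and was not called (q = 0.0751, Cuffdiff, the authors' deposited table). IL1RAP, the accessory chain of that receptor, was at 0.916 FPKM in K562 cells and 1.44 FPKM in MOLT4 cells and was not called. IL17RA, the shared chain of the IL-17 receptors, was at 3.50 FPKM in K562 cells and 5.66 FPKM in MOLT4 cells and was not called (q = 0.0635, Cuffdiff, the authors' deposited table).

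To ask where every chain of a receptor was transcribed, the lowest chain was taken for 27 textbook combinations, 5 of them of a single gene. Whether a receptor can signal with fewer chains was not tested. All chains reached 1 FPKM for 13 combinations in K562 cells and 10 in MOLT4 cells. Among these, 7 were found in both lines: IL-4 type I, IL-17, IL-27, erythropoietin, leptin, interferon alpha and beta, and interferon gamma. K562 alone had 6, namely IL-4 type II, LIF, oncostatin M, G-CSF, IL-10 and IL-18. MOLT4 alone had 3, namely IL-7, IL-11 and TGF-beta.

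The type I interferon and interferon gamma receptors had high lowest chains in both lines, at 16.2 FPKM in K562 cells and 29.4 FPKM in MOLT4 cells for interferon alpha and beta, and at 15.1 FPKM in K562 cells and 12.3 FPKM in MOLT4 cells for interferon gamma. Neither line reached 1 FPKM for every chain of the other 11 combinations, which include the IL-2, IL-15, IL-21 and IL-6 receptors. For IL-15 and IL-2 the signalling chain IL2RB was below 1 FPKM in both lines, whatever the level of IL2RG. The IL-11 and IL-1 receptors in K562 cells fell just short of 1 FPKM, with lowest chains at 0.960 and 0.916 FPKM. Just over it were G-CSF in K562 cells at 1.17 FPKM, and leptin, IL-7 and IL-17 in MOLT4 cells at 1.17, 1.26 and 1.31 FPKM. The G-CSF and IL-4 type II receptors are counted for K562 alone through CSF3R and IL13RA1, whose differences were not called. These are transcript levels and do not measure receptors on the cell surface.

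**Figure D3:**
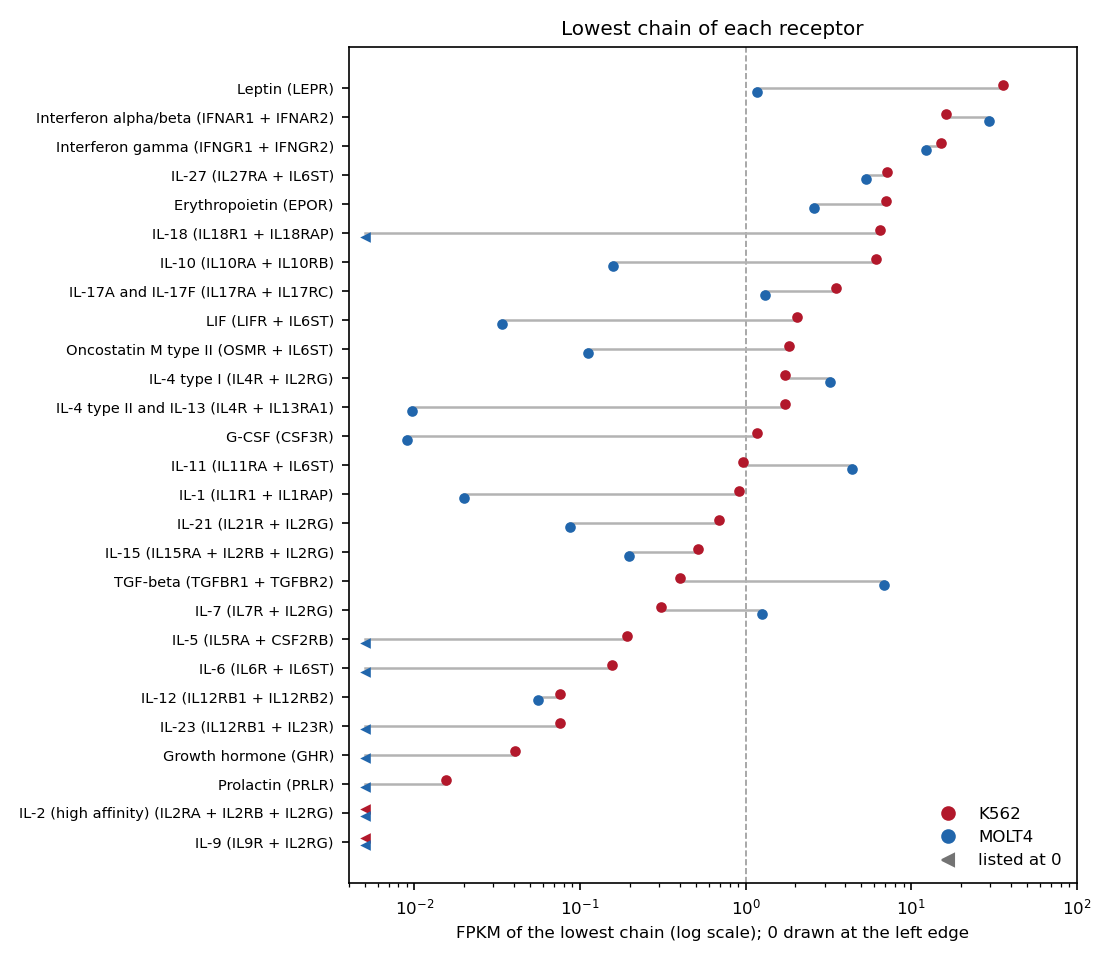
FPKM of the lowest chain of each receptor combination in K562 (red) and MOLT4 (blue) on a log scale, with a dashed line at 1 FPKM and triangles for chains listed at 0. IL-18, IL-10, LIF and oncostatin M receptors lie right of the line in K562 cells only, and TGF-beta, IL-7 and IL-11 receptors in MOLT4 cells only.

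Several of these genes lie beside each other. On chromosome 21, IFNAR2, IL10RB, IFNAR1 and IFNGR2 follow each other on the plus strand, and all reached at least 12.1 FPKM in both lines. IFNAR2, with the lower value in K562 cells, ends 0.683 kb before IL10RB, and IL10RB, IFNAR1 and IFNGR2 had the higher value in K562 cells. Of these genes IFNGR2 alone was called. On chromosome 5, LIFR and OSMR lie 238 kb apart on opposite strands and were both called higher in K562 cells. IL1R1 and IL18R1 lie 132 kb apart on chromosome 2 and stood at 3.40 and 6.49 FPKM in K562 cells, against 0.0201 and 0 FPKM in MOLT4 cells. CSF2RB and IL2RB lie 185 kb apart on chromosome 22 and stood at 2.34 and 0.516 FPKM in K562 cells, against 0 and 0.197 FPKM in MOLT4 cells, and CSF2RB alone was called. IL4R and IL21R, 37.4 kb apart on chromosome 16, were called in opposite directions. IL15RA and IL2RA, 32.5 kb apart on chromosome 10, were at 4.77 and 0 FPKM in K562 cells and at 3.47 and 0 FPKM in MOLT4 cells.

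Overlapping genes limit some values, since the sources used here do not give the strand setting of the counting. AP000295.1, annotated across IFNAR2 and IL10RB on the same strand, shares 44.2% of the exonic bases of IFNAR2 and 38.1% of those of IL10RB. It was at 3.13 FPKM in K562 cells and 12.8 FPKM in MOLT4 cells, and IL10RB-DT on the opposite strand, which overlaps IFNAR2, was at 2.95 FPKM in K562 cells and 14.6 FPKM in MOLT4 cells. How fragments were divided among these genes was not tested, so the IFNAR2 and IL10RB values are uncertain. LEPROT, which shares 165 exonic bases with LEPR on the same strand, was at 30.9 FPKM in K562 cells and 3.55 FPKM in MOLT4 cells. AL590764.2 shares 1403 exonic bases with IL2RG on the same strand, which is 50.8% of the exonic bases of IL2RG. It stood at 0.117 FPKM in K562 cells and 0.667 FPKM in MOLT4 cells. How fragments were divided between it and IL2RG was not tested either, so the IL2RG values are also uncertain. On the opposite strand, IL21R-AS1 shares 23.3% of the exonic bases of IL21R and was at 0.412 FPKM in K562 cells and 0.0767 FPKM in MOLT4 cells. AC008914.1, on the strand opposite to IL6ST, shares 797 exonic bases with it (8.58%) and was at 6.97 FPKM in K562 cells and 2.08 FPKM in MOLT4 cells, in the same direction as IL6ST but not called. TMEM50B, on the strand opposite to IFNGR2, shares 380 exonic bases with it (12.8%) and was at 18.9 FPKM in K562 cells and 17.5 FPKM in MOLT4 cells. IL11RA shares 410 exonic bases with AL162231.3 (9.60%) and 334 with GALT (7.82%), both on the same strand. GALT was at 7.30 FPKM in K562 cells and 15.3 FPKM in MOLT4 cells. RICTOR, on the strand opposite to OSMR, shares 229 exonic bases with it (3.19%).

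Janus kinases and STAT factors were nearly all transcribed in both lines: of 11, 9 reached 1 FPKM in K562 cells and 11 in MOLT4 cells. Of the 11, 4 were called higher in K562 cells and 2 in MOLT4 cells, against 23.4% and 18.8% of all genes tested, and the MOLT4 share is near the background. JAK3, the kinase bound to the tail of IL2RG, was at 0.0273 FPKM in K562 cells and 7.02 FPKM in MOLT4 cells, in the same direction as IL2RG. JAK2, the kinase of EPOR and CSF2RB, was at 15.4 FPKM in K562 cells and 3.36 FPKM in MOLT4 cells. JAK1, which serves the gamma chain, gp130 and interferon receptors, was at 38.8 FPKM in K562 cells and 13.2 FPKM in MOLT4 cells. STAT3, the main factor of the gp130 receptors, was at 105 FPKM in K562 cells and 58.4 FPKM in MOLT4 cells, and STAT5A was at 97.5 FPKM in K562 cells and 208 FPKM in MOLT4 cells.

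Inhibitors and adaptors were called in either direction. Of 21 genes, 7 were called higher in K562 cells and 3 in MOLT4 cells, where the background was 23.4% and 18.8%. The STAT-induced feedback inhibitors SOCS2, CISH and SOCS3 had the largest ratios toward K562 cells and were 65.1-fold, 20.7-fold and 12.4-fold higher there. Toward MOLT4 the largest ratios were those of PTPN6, a phosphatase that ends EPOR signalling, at 2.55 FPKM in K562 cells and 13.9 FPKM in MOLT4 cells, of SOCS4, at 6.15 FPKM in K562 cells and 15.2 FPKM in MOLT4 cells, and of SOCS7, at 8.92 FPKM in K562 cells and 18.4 FPKM in MOLT4 cells.

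On the branch of SMAD and MYD88 genes, 5 of 12 were called higher in K562 cells and 2 in MOLT4 cells, beside a background of 23.4% and 18.8%. SMAD3 and SMAD2, the factors that the TGF-beta receptor phosphorylates, went opposite ways: SMAD3 was at 13.2 FPKM in K562 cells and 2.84 FPKM in MOLT4 cells, and SMAD2 at 30.8 FPKM in K562 cells and 59.8 FPKM in MOLT4 cells. SKI and SKIL, repressors of SMAD signalling, were 3.95-fold and 2.76-fold higher in K562 cells. MYD88, the adaptor of IL-1 and IL-18 receptors, was at 20.4 FPKM in K562 cells and 35.7 FPKM in MOLT4 cells.

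Further receptor chains outside the 36 were called in either direction. Of 31, 18 had a test, with 8 called higher in K562 cells and 3 in MOLT4 cells, the MOLT4 share being near the background of 18.8% and the K562 share set against 23.4%. IL18RAP, the signalling partner of IL18R1, was at 24.1 FPKM in K562 cells and listed at 0 in MOLT4 cells, and TGFBR3, a TGF-beta coreceptor, was at 13.5 FPKM in K562 cells and listed at 0 in MOLT4 cells. ACVR1, IL20RB and IL17RC were 23.5-fold, 19.1-fold and 4.22-fold higher in K562 cells. IFNLR1, the interferon lambda receptor chain, was at 0.0474 FPKM in K562 cells and 0.445 FPKM in MOLT4 cells and was called higher in MOLT4 cells, a gene also named after its values were seen. ACVR1B, an activin receptor kinase, was at 5.20 FPKM in K562 cells and 11.9 FPKM in MOLT4 cells.

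Ligands of these receptors were mostly at or near 0. Of 42, 13 had a test, 4 were called higher in K562 cells and 2 in MOLT4 cells (background 23.4% and 18.8%), and at least 1 FPKM was reached by 7 in K562 cells and 5 in MOLT4 cells. IL4, the ligand of IL4R, was at 0.140 FPKM in K562 cells and 6.16 FPKM in MOLT4 cells and was called. IL18, the ligand of IL18R1, was at 8.79 FPKM in K562 cells and listed at 0 in MOLT4 cells. IL6 was at 3.90 FPKM in K562 cells and listed at 0 in MOLT4 cells, and IL15 was at 0.425 FPKM in K562 cells and 4.99 FPKM in MOLT4 cells. Both were called, and both were named after their values were seen. TGFB1, named after its values were seen because its receptor chains split, was at 72.0 FPKM in K562 cells and 18.0 FPKM in MOLT4 cells and was not called (q = 0.0609, Cuffdiff, the authors' deposited table). EPO, GH1, PRL, CSF3 and LEP, the ligands of receptors built from a single gene, were each at or below 0.0657 FPKM in both lines.

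**Figure D4:**
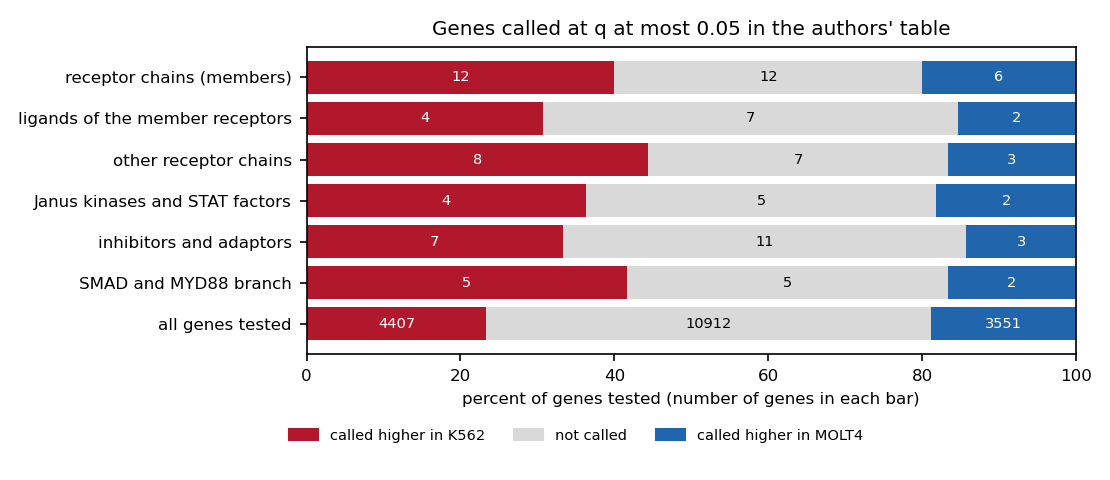
Percent of tested genes called higher in K562 (red), not called (grey) and called higher in MOLT4 (blue) for the receptor chains, for each pathway list and for all genes tested, with the number of genes in each bar. The red share of the receptor chains is 40.0%, against 23.4% of all genes tested, and the blue share is 20.0% against 18.8%.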

How the data were processed

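RNA sequencing of K562 and MOLT4 was deposited as 1 table with 1 FPKM value per gene and line. The submitters' processing notes name Cuffdiff, Cufflinks 2.2.2, TopHat2 2.1.1 and CASAVA 1.8.2, and the builds GRCh38.p13 and hg38, with no order. The FPKM values were computed and scaled by the authors, and the scaling between lines was not stated in the sources used here. The p-values and q-values are the authors' deposited Cuffdiff results. Adjusting the p-values by Benjamini-Hochberg over the 18870 genes with the status OK returned the deposited q-values, and the smallest p listed is 5e-05, which 12 of the receptor chains share.

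Ratios were computed as K562 over MOLT4 from the deposited FPKM, with no ratio where a line was listed at 0. A pseudocount of 1 FPKM, which understates the change of low genes, was used for log2 values. Groups came from the cell line labels. No replicate values or read counts were used, so the depth is unknown and no error could be computed. Named were all chains at 5 FPKM or more in a line, those called with 1 FPKM or more, and the other members by family. Of each pathway list, the called genes with up to 3 largest ratios each way at 5 FPKM or more were named, and so were called genes at 5 FPKM or more in a line and 0 in the other, which have no ratio. IL6, IL15, IFNLR1, IL1RL1, IL33 and TGFB1 were named after their values were seen, as were genes given for a role or in a check. Chains, lists and receptor combinations were chosen with earlier results of these data known. Gene positions and overlaps came from GENCODE release 29, and start regions from RefSeq. Python 3.11.15, pandas 2.3.3 and numpy 2.4.6 were used. The Benjamini-Hochberg adjustment was checked on simulated p-values against a separate implementation. Simulated folds were also recovered, but they were put in without noise, so that outcome was fixed in advance. The alternatives were other call rules, pseudocounts, filters and scalings.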

Additional observations from a re-analysis of the deposited data

How the results depend on the processing

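No paired analysis was possible because the table holds 1 value per gene and line, and no replicate could be left out for the same reason. With at least 1 FPKM required in both lines, which 14 receptor chains reached, 5 were called higher in K562 cells and 2 in MOLT4 cells. Without that filter 12 and 6 of the 30 tested chains were called. This filter leaves fewer chains by its construction. The share of all genes called is not given here for this filter or the call rules that follow, so these counts have no background. The counts under a q of at most 0.01, a fold of at least 2 or a mean of at least 1 FPKM stayed within 1.5 times, for the chains and, under the first 2 rules, for the pathway genes. The median log2 ratio of the chains, 0.73, was 0.98 with a pseudocount of 0.1 FPKM and 0.21 with 5 FPKM, 0.30 over all listed members, 0.60 at a mean of at least 1 FPKM, 0.72 after centring on genes that reached 1 FPKM in each line, and 0.77 as TPM. The same medians over all genes ran between -0.02 and 0.08. None of the 69 values of the 23 named chains under another pseudocount or scaling changed sign. A pseudocount cannot change a sign by its construction, and each scaling multiplies all genes of a line by a common factor. This outcome was therefore largely fixed in advance and does not test the directions. The depth is unknown, so low values carry no stated precision.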

Other observations

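The cytokine IL-18 and its receptor chains were found in K562 alone, whereas their adaptor MYD88 was transcribed in both lines. IL18, the cytokine, IL18R1, its binding chain, and IL18RAP, the signalling chain, were at 8.79, 6.49 and 24.1 FPKM in K562 cells and all were listed at 0 in MOLT4 cells. IL1RL1, the IL-33 receptor gene that shares a locus and 95 exonic bases with IL18R1, was at 1.19 FPKM in K562 cells and listed at 0 in MOLT4 cells. The authors' deposited table (Cuffdiff) calls all 4 genes higher in K562 cells. IL33, the ligand of IL1RL1, had no test and was listed at 0 in K562 cells and at 0.0185 FPKM in MOLT4 cells.

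Some of the widest differences among the receptor chains were not called. IL13RA1, IL1R1 and CSF3R were above 1 FPKM in K562 cells and above 0 but at most 0.0201 FPKM in MOLT4 cells, with ratios of 1740.2, 170 and 129 and q-values of 0.157, 0.0751 and 0.321 in the authors' deposited table (Cuffdiff). These were the 3 chains with a ratio of at least 100 and a value above 0 in both lines. Of all 1007 tested genes with such a ratio in either direction, 498 were not called, or 49.5%. CSF2RB and IL18R1, listed at 0 in MOLT4 cells and at 2.34 and 6.49 FPKM in K562 cells, were called. A missing call at such a ratio does not show that the lines are alike.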
